A study of Mus musculus with 4 samples.

Results

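Histone-modifying and chromatin-remodelling enzymes were followed in IL-10+ and IL-10- CD25+CD4+ T-cells, the cells in which Foxp3+ regulatory T-cells (Tregs) are found. The members were all probe sets whose single gene symbol in the platform annotation begins with Hdac, Sirt, Kat, Kdm, Setd, Kmt, Brd, Chd or Smarc in its numbered or lettered form. They comprised 219 probe sets of 89 genes, out of 45037 probe sets and 18193 genes tested. A probe set is the group of short probes that reads a transcript at a given place, and 60 of the 89 genes had several of them. Each gene was represented by its brightest probe set, the one with the highest mean over the 4 arrays, and all its other probe sets were examined as well.

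Both groups came from C57Bl/6 mice of 6 to 12 weeks that had received the superagonistic CD28 antibody D665 i.p. On day 3, CD4+CD25+ cells were taken from the lymph nodes and kept overnight with IL-2 (200 U/ml) and antibodies to CD3 (2 µg/ml) and CD28 (5 µg/ml). They were then stained for IL-10 and sorted into an IL-10+ group (replicates 1 and 2) and an IL-10- group (replicates 3 and 4), with 1 array per sample. All 4 samples thus carried the same stimulation, and no unstimulated sample enters the comparison. The sources do not say whether the 2 samples of a group came from separate mice or sorts, so a p-value here reflects how far apart these particular samples lay, a distance that may be technical in origin.

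DNA in the nucleus is wound around histones, and the tails of these proteins carry acetyl and methyl groups that mark genes as accessible or closed. Acetyltransferases and methyltransferases write the marks, deacetylases, sirtuins and demethylases erase them, bromodomain proteins read acetylated tails, and CHD, SWI/SNF and ISWI remodellers use ATP to slide or evict nucleosomes. In T-cells these enzymes take part in opening and closing cytokine genes, and several deacetylases also act on the Foxp3 protein itself.

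The labels were checked first. Il10, the gene the cells were sorted by, stood at 12.02 and 12.00 in the IL-10+ samples, against 10.41 and 10.37 in the IL-10- samples (log2 values as deposited). The IL-10- samples were thus not without the transcript. Foxp3, the defining transcription factor of Tregs, was at 10.86 and 10.79 in IL-10+ samples and at 11.54 and 11.55 in IL-10- samples, so that both groups carried it and it was lower in the IL-10+ group (-0.72, adjusted p = 0.000174). Of 6 Treg markers in all, 1 was higher (Ctla4, 0.87, adjusted p = 0.000198), 2 were lower (Foxp3 and Ikzf2) and 3 did not pass. Il2ra, which encodes CD25, was at 12.85 and 12.75 in IL-10+ samples and at 12.90 and 13.14 in IL-10- samples (adjusted p = 0.12). Of 4 T-cell markers 2 were higher, Cd4 by 0.51 and Cd3g by 0.41, and 0 lower. Markers of other cell types also differed between the groups. Of 11 measured B and plasma cell markers 10 were lower and 0 higher in IL-10+ samples. Their mean level was 6.61 and 6.58 in IL-10+ samples and 8.67 and 8.65 in IL-10- samples, and the immunoglobulin gene Igha differed by -5.45. Of 4 NK cell markers 3 were lower, and of 8 myeloid markers 2 were higher. The defining B-cell gene Pax5 was dim in all 4 samples (6.17 and 6.12 in IL-10+ samples, 6.21 and 6.15 in IL-10- samples). In bulk samples fewer cells of a type and less RNA per cell cannot be told apart. What part these markers have in the differences below was not tested.

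Over the brightest probe sets, 13 of the 89 genes were higher and 35 were lower in IL-10+ samples at an adjusted p under 0.05 (limma, Benjamini-Hochberg over all probe sets), and 41 did not pass. These are 14.6% and 39.3% of the genes, while over all genes 8.37% were higher and 22.9% were lower. The enzyme genes were bright, with a median of the means of 8.56 against 6.82 over all genes, and bright probe sets passed more often throughout the arrays. Among the 77 enzyme genes with a mean of at least 7, 14.3% were higher and 42.9% were lower, beside 13.3% and 42.6% of all 8532 genes that bright. Pooled in this way, the shares of calls were close to those of other bright genes in both directions. In narrower ranges they varied around them: for means of 7 to 8, 27.8% of 18 enzyme genes were higher and 61.1% were lower, against 11.7% and 36.3% of all, for 8 to 9 it was 10.7% and 32.1% of 28, against 12.9% and 45.4%, and above 9 it was 9.68% and 41.9% of 31, against 14.7% and 45.5%. The median difference of the enzyme genes was -0.11 on the log2 scale, against -0.01 over all genes. Single differences were mostly moderate, ranging from -0.93 (Chd3) to 1.32 (Kdm5b).

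**Figure D1:**
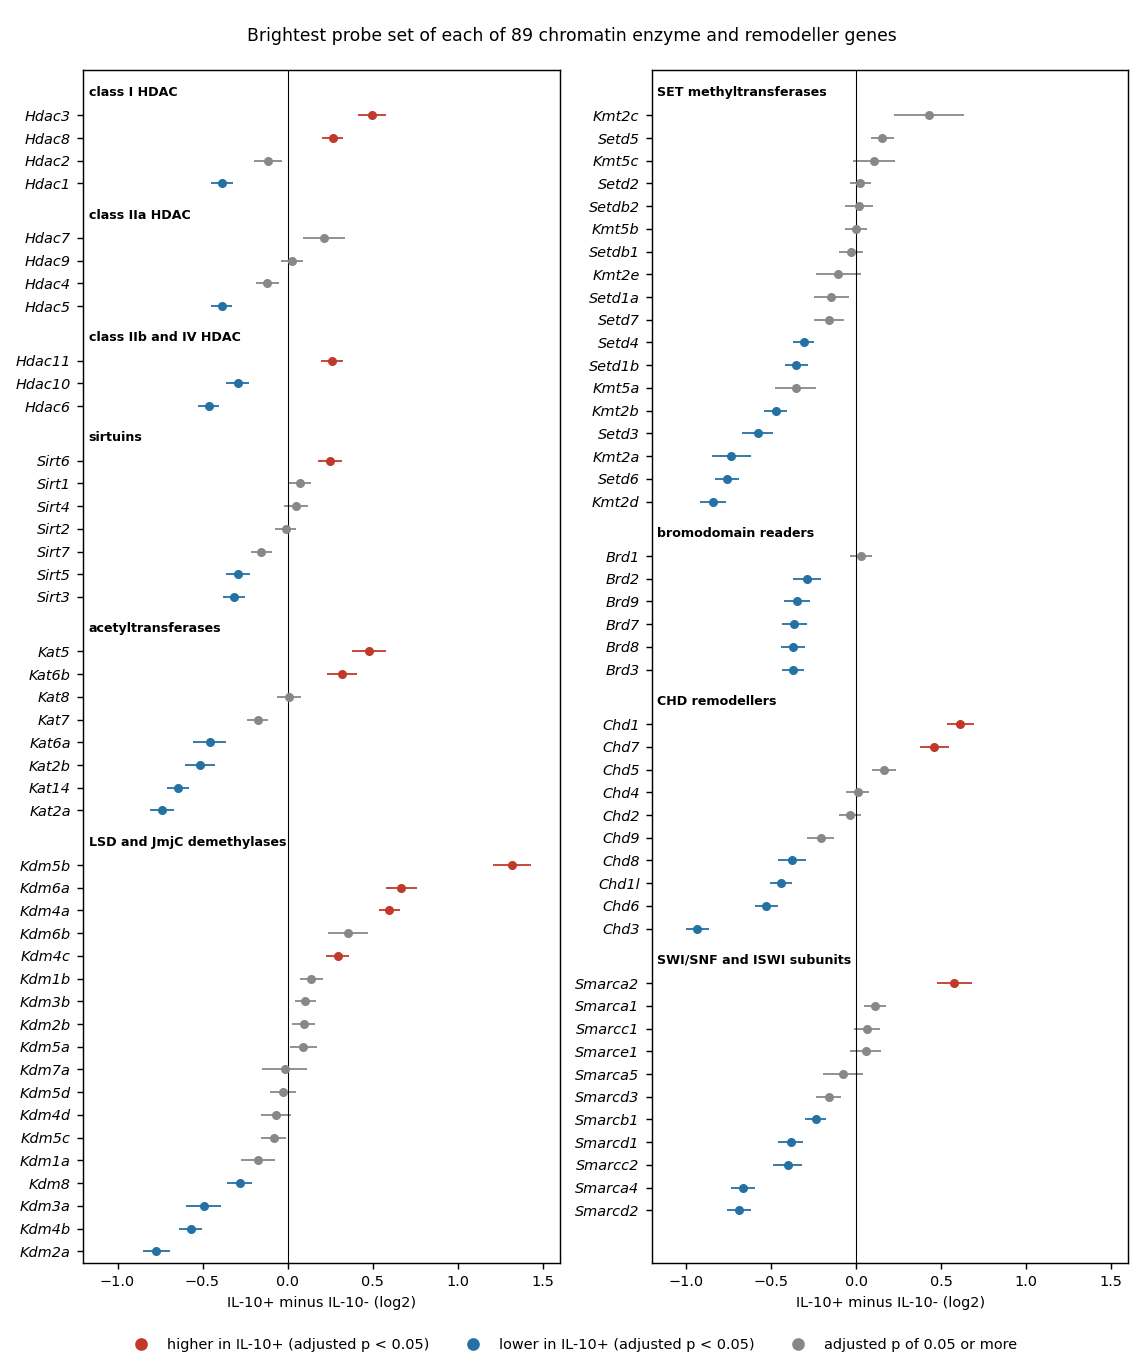
Log2 difference in the brightest probe set of each of the 89 genes, by role. Points are IL-10+ minus IL-10-, with the SE of limma as bars (2 samples per group); 13 genes were higher, 35 were lower and 41 did not pass. Kdm5b is the point farthest to the right (1.32) and Chd3 the one farthest to the left (-0.93).

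The demethylases had 4 of 18 genes higher and 4 lower in IL-10+ samples (22.2% each), and 10 did not pass. Of all genes with a mean of at least 7, 13.3% were higher and 42.6% were lower. Kdm5b, which removes methyl groups from lysine 4 of histone H3 and so takes away a mark of active promoters, stood at 10.38 and 10.36 in IL-10+ samples, against 8.87 and 9.23 in IL-10- samples. The groups lay far apart, with a difference of 1.32 (SE 0.11, adjusted p = 0.000142), or 2.5-fold if values are log2. On that reading Kdm5b had the only brightest probe set of the 89 that passed 2-fold with an adjusted p under 0.001. If values are natural logs, falls such as that of Chd3 (-0.93, adjusted p = 6.59e-05) pass as well. Kdm6a, a demethylase of the Polycomb mark on histone H3, was at 9.49 and 9.45 in IL-10+ samples and at 8.68 and 8.93 in IL-10- samples (0.67, SE 0.09, adjusted p = 0.00109). Kdm4a, which acts on methylated lysines 9 and 36, was at 8.07 and 8.09 in IL-10+ samples and at 7.50 and 7.47 in IL-10- samples. Both rose clearly beyond the spread of their replicates, Kdm4a by 0.60 (adjusted p = 0.00034). Its relative Kdm4c rose by 0.29, with 7.93 and 7.97 in IL-10+ samples and 7.62 and 7.69 in IL-10- samples (adjusted p = 0.0115), but did not pass without IL-10+ replicate 1 (adjusted p = 0.0579) or 2 (0.097). Kdm6b, a close relative of Kdm6a, was at 9.76 and 9.68 in IL-10+ samples and at 9.55 and 9.17 in IL-10- samples and did not pass (0.36, adjusted p = 0.0562). The second probe set of Kdm6b went the other way, with 8.52 and 8.37 in IL-10+ samples and 9.01 and 9.59 in IL-10- samples (-0.85, SE 0.17, adjusted p = 0.00692), so that the gene has no single direction.

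In the other direction, Kdm2a, which removes methyl groups from lysine 36 of histone H3, was at 8.94 and 8.83 in IL-10+ samples and at 9.73 and 9.58 in IL-10- samples (-0.77, adjusted p = 0.000318). Kdm4b fell by 0.57, the H3 lysine 9 demethylase Kdm3a by 0.49 and Kdm8 by 0.28, the last not passing without IL-10+ replicate 1 (adjusted p = 0.144) or 2 (0.0701). Members of 1 family thus differed in opposite directions, with Kdm4a and Kdm4c higher, Kdm4b lower and Kdm4d not passing (-0.07, adjusted p = 0.643). Kdm1a, the flavin-dependent demethylase LSD1, did not pass either (-0.17, adjusted p = 0.258).

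The SET domain methyltransferases, which include the writers that oppose Kdm5b, had 0 of 18 genes higher and 7 lower by brightest probe sets (0% and 38.9%). Of all genes with a mean of at least 7, 13.3% were higher and 42.6% were lower. Over all 47 probe sets of the role 11 were higher and 13 were lower. Kmt2d, which methylates lysine 4 of histone H3 at enhancers, stood at 8.43 and 8.47 in IL-10+ samples, against 9.21 and 9.37 in IL-10- samples (-0.84, SE 0.08, adjusted p = 0.000183). Kmt2a, the founding member of the MLL family, was at 8.86 and 8.61 in IL-10+ samples and at 9.60 and 9.34 in IL-10- samples (-0.73, SE 0.11, adjusted p = 0.00209). The related Kmt2b fell by 0.48 and Setd1b by 0.35 (adjusted p = 0.0539 without IL-10+ replicate 2), while Setd1a (-0.15, adjusted p = 0.354) and Kmt2c (0.43, adjusted p = 0.171) did not pass. In Kmt2c the IL-10- samples were themselves far apart (8.86 and 8.92 in IL-10+ samples, 8.09 and 8.84 in IL-10- samples). Of these 6 writers of the lysine 4 mark, 4 were lower and 0 higher by their brightest probe sets, where 42.6% of all genes with a mean of at least 7 were lower. The second probe sets of Kmt2d (-0.08, adjusted p = 0.546) and Kmt2a (0.07, adjusted p = 0.468) did not pass. Neither did that of Setd1b (-0.10, adjusted p = 0.49), and Kmt2b had a single probe set. Dimmer probe sets of the other 2 writers were called higher, the third and the fourth of Kmt2c (0.64, adjusted p = 0.000691, and 0.41, adjusted p = 0.0061) and the second of Setd1a (0.30, adjusted p = 0.0408).

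Among the remaining methyltransferases, Setd6, known for methylating the NF-κB subunit RelA, was at 6.90 and 6.95 in IL-10+ samples and at 7.74 and 7.63 in IL-10- samples. Its second probe set differed alike (-0.71 beside -0.76 for the brightest; adjusted p = 0.00019 and 0.000187). Setd3, an actin histidine methyltransferase, was at 9.02 and 9.12 in IL-10+ samples and at 9.53 and 9.76 in IL-10- samples (-0.58, adjusted p = 0.00221). The second probe set of Setd3 did not pass (-0.06, adjusted p = 0.649). Setd4 fell by 0.31 in its brightest probe set (adjusted p = 0.0731 without IL-10+ replicate 1), and its other 2 probe sets also passed as lower. Setd2, which writes the lysine 36 mark during transcription, was nearly level (0.02, SE 0.06, adjusted p = 0.841).

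The start regions of 3 genes are shown, those of Kdm5b as the largest rise and of the acetyltransferase Kat14 and the remodeller Chd6 as falls, all by their brightest probe sets. They were chosen among called genes with a single listed start whose window lay wholly outside the annotated gene. Genes in part of the genome were left out of this choice, whatever their start regions. Among the genes considered, Kdm5b was the only higher one, and Kat14 and Chd6 had the largest falls. Other higher genes may therefore also meet the criteria on start and window. Each sequence is the 250 bases before the gene (RefSeq, GRCm38.p6), at chr1:134559928-134560177 on the plus strand for Kdm5b, chr2:144368782-144369031 on the plus strand for Kat14 and chr2:161109087-161109336 on the minus strand for Chd6. Capitals mark the GC box (GGGCGG or its reverse complement CCGCCC) and the CCAAT box (CCAAT or its reverse complement ATTGG).
Kdm5b: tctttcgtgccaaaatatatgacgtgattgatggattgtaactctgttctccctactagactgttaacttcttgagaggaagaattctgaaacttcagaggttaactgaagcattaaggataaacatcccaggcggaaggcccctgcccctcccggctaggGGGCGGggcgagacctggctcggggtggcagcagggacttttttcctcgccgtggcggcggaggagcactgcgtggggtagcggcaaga
Kat14: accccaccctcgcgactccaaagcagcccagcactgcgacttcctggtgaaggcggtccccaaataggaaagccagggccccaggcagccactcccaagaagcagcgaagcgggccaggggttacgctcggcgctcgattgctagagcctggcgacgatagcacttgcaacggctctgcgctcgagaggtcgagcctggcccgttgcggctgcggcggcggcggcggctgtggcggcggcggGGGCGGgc
Chd6: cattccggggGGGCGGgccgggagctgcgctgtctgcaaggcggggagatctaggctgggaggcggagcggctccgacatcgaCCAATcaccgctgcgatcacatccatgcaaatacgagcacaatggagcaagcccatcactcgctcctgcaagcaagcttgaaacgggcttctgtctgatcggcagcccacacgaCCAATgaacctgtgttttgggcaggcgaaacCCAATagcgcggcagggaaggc
Each window held 1 GC box, and that of Chd6 also held 3 CCAAT boxes, which the other windows lacked. The GC content was 54.4% for Kdm5b, 70% for Kat14 and 61.6% for Chd6.

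Promoter windows were listed for 71 of the 89 genes, 97 windows in all, each before a listed start, some of which lie inside the annotated gene. Chd3 was not among them. A GC box was found in 64.9% of these windows and in 32.7% of the 32851 windows of all genes, and the median GC content was 62% against 52.4%. The windows of all genes cover 27025 genes and were not matched to the enzymes for brightness. A TATA box (TATAAA, either strand) was found in 4.12% of the enzyme windows and in 12.4% of all. The CCAAT box was about as frequent in the enzyme windows (35.1%) as in all windows (33.8%), and the ETS motif CCGGAAG was found in 14.4% against 6.91%. The CRE TGACGTCA was in 0% against 1.55%, the E-box CACGTG in 4.12% against 6.02% and the AP-1 motif TGANTCA in 7.22% against 6.75%. All motifs were searched on both strands, and none contains another. Genes called in either direction had GC-rich starts: a GC box was in 57.1% of the 14 windows of the higher genes, 70.6% of the 34 windows of the lower genes and 63.3% of the 49 windows of genes that did not pass. The E-box was in 21.4% of the windows of the higher genes, 0% of those of the lower genes and 2.04% of those that did not pass. These are matches of letters and say nothing of binding.

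**Figure D2:**
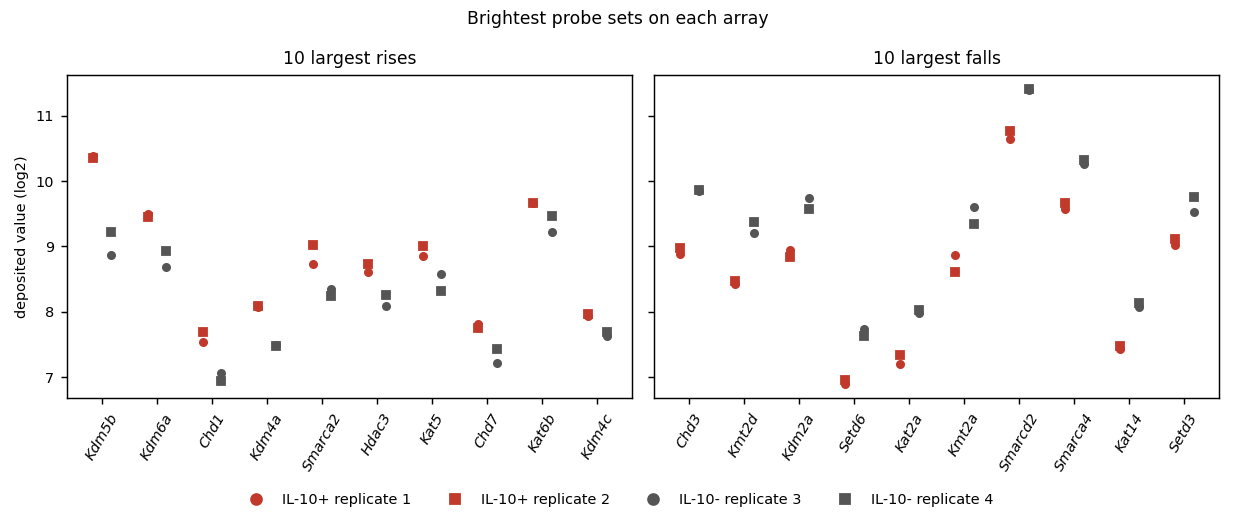
Deposited log2 value on each of the 4 arrays for the 10 enzyme genes with the largest rises (left) and the 10 with the largest falls (right) in IL-10+ samples, by brightest probe set. Each point is 1 array, red for IL-10+ and grey for IL-10-; the genes were chosen so that the groups do not overlap, and Kdm5b shows the widest gap (10.38 and 10.36 against 8.87 and 9.23).

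Among the acetyltransferases 2 of 8 genes were higher and 4 were lower (25% and 50%), beside 13.3% and 42.6% of all genes with a mean of at least 7. Kat2a, known as GCN5, was at 7.20 and 7.34 in IL-10+ samples and at 7.98 and 8.03 in IL-10- samples (-0.74, SE 0.07, adjusted p = 0.000255). Its second probe set, nearly as bright (mean 7.36 beside 7.64), did not pass (0.15, adjusted p = 0.175), nor did the third (-0.03, adjusted p = 0.832). Kat14, a partner of Kat2a in the ATAC complex, was at 7.44 and 7.48 in IL-10+ samples and at 8.07 and 8.13 in IL-10- samples (-0.64, adjusted p = 0.000295). The close Kat2a relative Kat2b (PCAF) also fell, by 0.51, and Kat6a by 0.46 (adjusted p = 0.0572 without IL-10+ replicate 1). Kat5, the catalytic subunit of the TIP60 complex, was in contrast at 8.86 and 9.00 in IL-10+ samples and at 8.58 and 8.33 in IL-10- samples (0.48, SE 0.10, adjusted p = 0.00782). The second probe set of Kat5 did not pass (0.08, adjusted p = 0.582). Kat6b was at 9.66 and 9.67 in IL-10+ samples and at 9.22 and 9.46 in IL-10- samples (0.32, adjusted p = 0.028), a call that was lost after median centring (adjusted p = 0.0726), without either IL-10+ replicate and without IL-10- replicate 3. The paralogs Kat6a and Kat6b thus differed in opposite directions over the 4 arrays. Kat7 (-0.17, adjusted p = 0.0745) and Kat8 (0.01, adjusted p = 0.959) did not pass.

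The histone deacetylases did not move as a block. Class I had 2 higher and 1 lower of 4 genes, class IIa 0 and 1 of 4, and classes IIb and IV 1 and 2 of 3. The classes are small, and calls in both directions were also found among all genes with a mean of at least 7 (13.3% higher, 42.6% lower). In class I, the nuclear enzymes found in corepressor complexes, Hdac3 and Hdac8 were higher and Hdac1 was lower. Hdac3, the deacetylase of the NCoR complex, stood at 8.62 and 8.73 in IL-10+ samples, against 8.08 and 8.26 in IL-10- samples (0.50, SE 0.08, adjusted p = 0.00296). Hdac1 was at 10.68 and 10.67 in IL-10+ samples and at 11.03 and 11.10 in IL-10- samples (-0.38, SE 0.06, adjusted p = 0.00307), and its partner Hdac2 did not pass with its brightest probe set (-0.11, adjusted p = 0.369). Hdac8 was dim and rose by 0.27. In class IIa, which shuttles between nucleus and cytoplasm, Hdac5 fell by 0.39 and the brightest probe sets of Hdac4, Hdac7 and Hdac9 did not pass. Hdac6, the tubulin deacetylase that also acts on Foxp3, fell by 0.46 (7.91 and 7.88 in IL-10+ samples, 8.37 and 8.35 in IL-10- samples, adjusted p = 0.0011), Hdac10 fell by 0.29 and Hdac11, the class IV enzyme, rose by 0.26. The calls of Hdac8, Hdac10 and Hdac11 were lost without either IL-10+ replicate (adjusted p between 0.0711 and 0.152), those of Hdac3, Hdac1, Hdac5 and Hdac6 were not.

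Of 7 sirtuins, the NAD-dependent deacylases, 1 was higher and 2 were lower (14.3% and 28.6%). Of all genes with a mean of at least 7 it was 13.3% and 42.6%. Sirt6, a nuclear sirtuin, rose by 0.25 (8.09 and 8.06 in IL-10+ samples, 7.76 and 7.89 in IL-10- samples, adjusted p = 0.0328). The mitochondrial Sirt3 fell by 0.31 and Sirt5 by 0.29, and the other mitochondrial sirtuin, Sirt4, did not pass (0.05, adjusted p = 0.689). Sirt1, which deacetylates Foxp3, was level within its error (8.22 and 8.20 in IL-10+ samples, 8.10 and 8.18 in IL-10- samples, difference 0.07, SE 0.07). Among the sirtuins no difference exceeded 0.31 in size, and without IL-10+ replicate 1 none of the 3 calls was kept (adjusted p between 0.085 and 0.174).

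The bromodomain proteins were the most uniform role, with 5 of 6 genes lower, 0 higher and differences of the 5 between -0.37 and -0.29. Brd2, a BET protein that binds acetylated histone tails, was at 10.75 and 10.72 in IL-10+ samples and at 10.92 and 11.12 in IL-10- samples (-0.29, adjusted p = 0.0311). Its BET relative Brd3 fell by 0.37, and the third probe set of Brd3 fell by 0.63. Brd7 of the PBAF form of SWI/SNF fell by 0.36, Brd9 of the non-canonical form by 0.35 and Brd8 of the TIP60 complex by 0.37. Brd1 did not pass (0.03, adjusted p = 0.809). Without IL-10+ replicate 1 the calls of Brd2, Brd7 and Brd9 were lost (adjusted p = 0.104, 0.056 and 0.082), and Brd2 was also lost after quantile normalization. The other 5 probe sets of Brd8 did not pass, and the mean over its probe sets did not either (-0.17, adjusted p = 0.0614). With 6 genes the count is small, and of all genes with a mean of at least 7 it was 42.6% that were lower.

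Among the CHD remodellers 2 of 10 genes were higher and 4 were lower (20% and 40%), near the 13.3% and 42.6% of all genes with a mean of at least 7. Chd3, an ATPase of the NuRD complex, which joins remodelling to deacetylation, was at 8.88 and 8.97 in IL-10+ samples and at 9.86 and 9.87 in IL-10- samples (-0.93, SE 0.07, adjusted p = 6.59e-05). This was the largest fall of the 89 genes, and Chd3 had this single probe set. The other NuRD ATPase, Chd4, was level with its brightest probe set (8.97 and 8.97 in IL-10+ samples, 9.02 and 8.90 in IL-10- samples), while its second probe set was at 7.78 and 7.84 in IL-10+ samples and at 6.69 and 6.99 in IL-10- samples (0.97, adjusted p = 0.000345). Chd1, which binds methylated lysine 4 at active genes, was at 7.54 and 7.68 in IL-10+ samples and at 7.07 and 6.93 in IL-10- samples (0.61, adjusted p = 0.000984). Chd7, an enhancer-bound remodeller, was at 7.82 and 7.75 in IL-10+ samples and at 7.21 and 7.43 in IL-10- samples (0.46, adjusted p = 0.005), and its second probe set was higher as well (0.28). Chd6 fell by 0.53, Chd1l by 0.44 and Chd8 by 0.38 (adjusted p = 0.0768 without IL-10+ replicate 2).

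Of the 11 SWI/SNF and ISWI genes 1 was higher and 5 were lower (9.09% and 45.5%), near the 13.3% and 42.6% of all genes with a mean of at least 7. The alternative ATPases of SWI/SNF, Smarca2 (BRM) and Smarca4 (BRG1), differed in opposite directions. Smarca2 stood at 8.72 and 9.02 in IL-10+ samples, against 8.35 and 8.24 in IL-10- samples (0.58, SE 0.10, adjusted p = 0.00432), and its second probe set was also higher (0.27). Smarca4 was at 9.57 and 9.67 in IL-10+ samples and at 10.26 and 10.32 in IL-10- samples (-0.67, SE 0.07, adjusted p = 0.000326). Smarcd2, an accessory subunit with the brightest probe set of the class, was at 10.65 and 10.77 in IL-10+ samples and at 11.39 and 11.41 in IL-10- samples (-0.69, adjusted p = 0.000285), and its second probe set fell by 0.62. Smarcc2 fell by 0.40, Smarcd1 by 0.39 and the core subunit Smarcb1 by 0.24, and these 3 calls were lost without IL-10+ replicate 2 (adjusted p = 0.0666, 0.0522 and 0.133). The brightest probe sets of Smarcc1 (0.07), Smarce1 (0.06) and the ISWI ATPase Smarca5 (-0.08) did not pass. Dimmer probe sets were called for Smarcc1 (the third, 0.69, adjusted p = 0.000857) and, on the lower side, for Smarce1 (the second, -0.51, adjusted p = 0.00154).

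The picture changed when all 219 probe sets were examined. Of these, 47 were higher, 55 were lower and 117 did not pass, that is 21.5% and 25.1%, against 13.6% and 16.2% of all probe sets. After each array was centred on its median, the split was 35 higher and 70 lower. Past 2-fold with an adjusted p under 0.001 were 6 higher and 0 lower, where 1.72% and 0.575% of all probe sets passed. These counts take values as log2, and with values read as natural log 12 higher and 7 lower passed 2-fold. The largest fall of all 219 probe sets was -0.93. Of the 6 probe sets only that of Kdm5b was the brightest of its gene. Without IL-10+ replicate 2 the threshold was passed by 3, those of Kdm5b, Setdb1 and Kdm5a.

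The largest difference of the class was in Hdac7, a class IIa deacetylase of thymocytes and T-cells. Its second probe set stood at 9.53 and 9.53 in IL-10+ samples, against 8.18 and 7.42 in IL-10- samples (1.73, SE 0.21, adjusted p = 0.000643, 3.32-fold), whereas the brightest was at 10.07 and 10.08 in IL-10+ samples and at 10.06 and 9.66 in IL-10- samples (0.21, adjusted p = 0.249). In both, IL-10- replicate 4 was the lowest array. Setdb1, a methyltransferase of lysine 9 that silences repeats, had the third probe set at 7.44 and 7.36 in IL-10+ samples and at 6.09 and 6.01 in IL-10- samples (1.35, SE 0.07, adjusted p = 2.15e-05), beside -0.03 for its brightest (adjusted p = 0.8). Kdm5a, a relative of Kdm5b, had the third at 7.41 and 7.56 in IL-10+ samples and at 6.42 and 6.13 in IL-10- samples (1.21, adjusted p = 0.000161), beside 0.09 for its brightest (adjusted p = 0.444). In these 3 genes the call thus hung on the probe set.

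Kdm6a and Smarca5 completed the group. The third probe set of Kdm6a was at 7.13 and 7.35 in IL-10+ samples and at 6.12 and 6.20 in IL-10- samples (1.08, adjusted p = 0.000109), which has the direction of its brightest, while its second (0.10, adjusted p = 0.326) and dimmest (0.04, adjusted p = 0.705) did not pass. The second of Smarca5, the ATPase of the ISWI complexes, was at 8.99 and 9.14 in IL-10+ samples and at 7.96 and 8.04 in IL-10- samples (1.07, adjusted p = 6.7e-05), and the fourth was higher by 0.52. The brightest and the third differed by -0.08 and -0.12 and did not pass. Kdm5b itself showed its rise in 1 of 4 probe sets. The second, at 8.26 and 8.16 in IL-10+ samples and 8.33 and 8.29 in IL-10- samples, differed by -0.10 (adjusted p = 0.322), and the other 2 did not pass either. Just under 2-fold were probe sets of Kdm7a (the third, 0.98, adjusted p = 5.51e-05) and Chd4 (the second, 0.97), each of a gene whose brightest probe set did not pass.

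**Figure D3:**
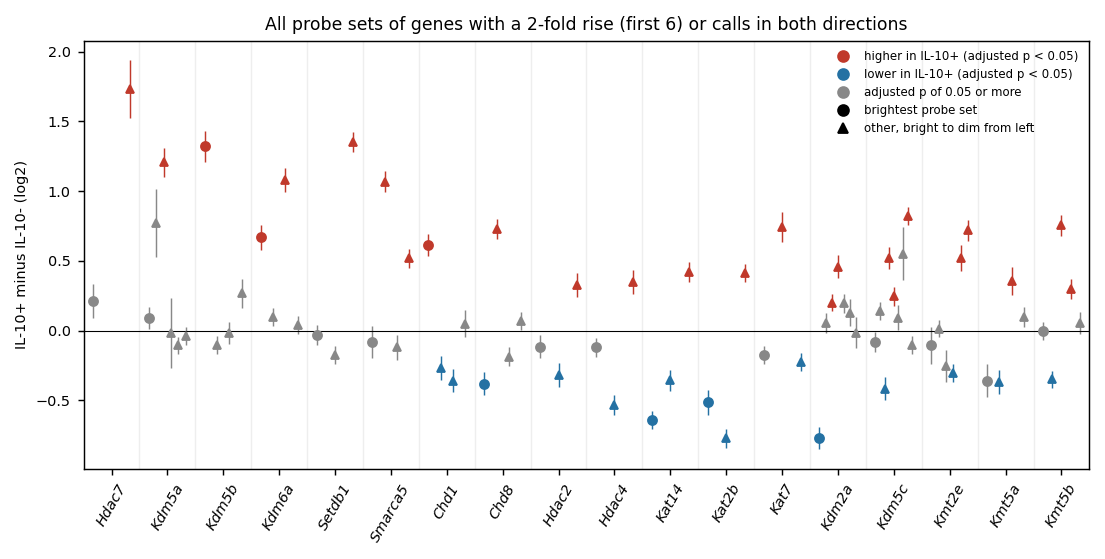
Log2 difference, IL-10+ minus IL-10-, of every probe set of the genes with a 2-fold rise (first 6 genes) and of the 12 genes with calls in both directions. Within a gene the probe sets run from bright (left, circle) to dim (right, triangles), and bars are the SE of limma; the Hdac7 probe set at 1.73 lies beside a brightest one at 0.21.

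Calls in both directions within 1 gene occurred in 12 of the 60 genes with several probe sets (20%), against 12% of all 9010 such genes. Brightest probe sets on the lower side with a dimmer one on the higher side were found in 4 genes: Chd8 (-0.38 and 0.73), Kat14 (-0.64 and 0.42), Kat2b (-0.51 and 0.41) and Kdm2a (-0.77, with 0.20 and 0.46). In Kat2b the dimmest probe set was at 6.57 and 6.57 in IL-10+ samples and at 6.20 and 6.11 in IL-10- samples, and in Chd8 the second was at 8.11 and 8.20 in IL-10+ samples and at 7.37 and 7.48 in IL-10- samples. In both of these dimmer probe sets the groups did not overlap. Chd1 was the only gene with the reverse order, its brightest probe set higher (0.61) and the second and the third lower (-0.27 and -0.36).

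In the other 7 genes the brightest probe set did not pass and dimmer ones were called both ways. Kdm5c, an X-linked demethylase of lysine 4 with 9 probe sets, had 3 higher (0.25, 0.52 and 0.82), 1 lower (-0.42) and 5 that did not pass. The probe set at 0.82 was read at 6.47 and 6.51 in IL-10+ samples and at 5.64 and 5.70 in IL-10- samples (adjusted p = 9.79e-05). Kmt2e had 2 dim probe sets that were higher (0.52 and 0.72) and a bright one that was lower (-0.30). Kmt5b, which dimethylates lysine 20 of histone H4, had 0.75 and 0.30 against -0.35. Kat7 (0.74 and -0.22), Hdac4 (0.35 and -0.53), Kmt5a (0.36 and -0.37) and Hdac2 (0.33 and -0.32) had 1 call in each direction. The probe sets of these genes give no single direction. With the mean over all probe sets of a gene in place of the brightest, Kdm2a (0.037), Chd8 (0.058) and Chd1 (0.0082) did not pass, while Kdm5c (0.20), Setdb1 (0.38) and Smarca5 (0.35) passed as higher.

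The dimmer probe sets as a group lay higher than the brightest. Of the 130 member probe sets that were not the brightest of their gene, 34 were higher and 20 were lower (26.2% and 15.4%), beside 20% and 13.4% of all such probe sets. In 43 of the 60 genes with several probe sets (71.7%) the mean difference of the dimmer ones was above that of the brightest, with a median gap of 0.22, and over all genes this held for 61.7%, with a gap of 0.07. Across the 219 probe sets brightness and difference had a Spearman correlation of -0.29, against -0.13 across all probe sets, given as a description since probe sets share arrays and genes. Over brightest probe sets alone the order was reversed, with -0.11 across the 89 genes and -0.28 across all genes. Below a mean of 7, 23 of 89 enzyme probe sets were higher and 7 were lower (25.8% and 7.87%), against 9.47% and 5.02% of all probe sets that dim. Above 9 it was 3 and 16 of 37 (8.11% and 43.2%), against 17.8% and 43.5% of all. Higher calls thus outnumbered lower ones among dim probe sets, and the reverse held among bright ones, over the whole array as well as in the enzymes. It did not hold for dim probe sets that were the brightest of their gene. Below a mean of 7 these had 2 higher and 2 lower of 12 enzyme genes, and 391 and 539 of all 9661 genes. Whether the enzymes differ from the rest in how calls go with brightness was not tested.

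**Figure D4:**
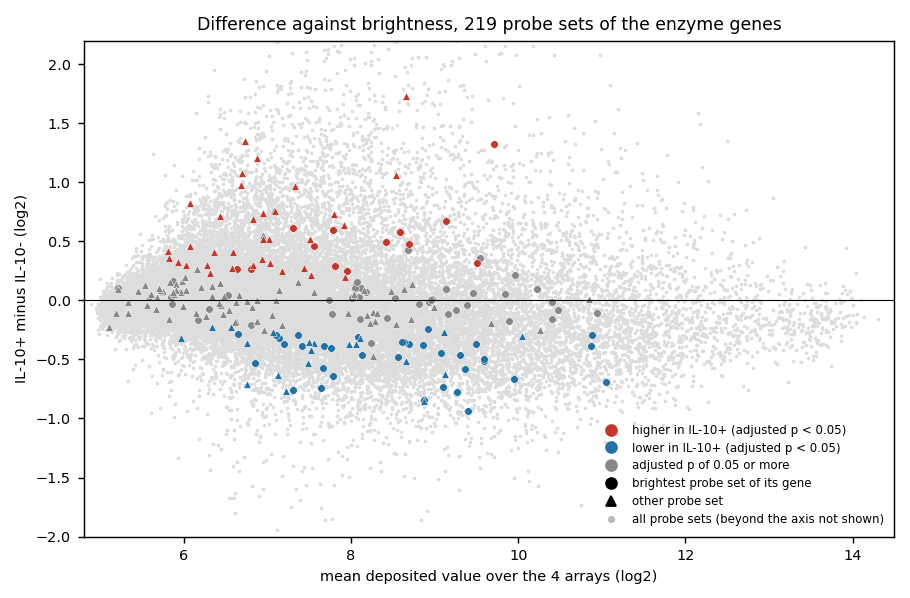
Log2 difference, IL-10+ minus IL-10-, of the 219 enzyme probe sets against their mean deposited value over the 4 arrays (log2), over all probe sets in light grey. Higher calls (red) gather among dim probe sets and lower calls (blue) among bright ones; circles are the brightest probe set of a gene and triangles its others.

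The readings of control transcripts added to the RNA moved with the groups as well, while the study reports RNA integrity numbers within a narrow range. Poly-A control transcripts spiked into the RNA (dap, lys, phe, thr) are read at their 5' end, middle and 3' end. The IL-10+ samples exceeded the IL-10- samples by a median of 1.22 (range 0.68 to 2.16) at the 5' end and by 0.82 in the middle, while the 3' readings differed by 0.04. For dap the 5' reading was 9.68 and 9.91 in IL-10+ samples and 8.14 and 7.14 in IL-10- samples, with IL-10- replicate 4 the lowest array. Among the probe sets past 2-fold, IL-10- replicate 4 was lowest in Hdac7, Setdb1 and Kdm5a, and IL-10- replicate 3 in Kdm5b, Kdm6a and Smarca5. Where along its transcript each enzyme probe set lies was not analysed here, and the part of this difference in the probe sets with large rises was not tested. The replicates of the IL-10- group were also farther apart: the median gap between replicates over the 219 probe sets was 0.060 in IL-10+ samples and 0.116 in IL-10- samples, and 0 and 7 probe sets had a gap over 0.5.

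Partners of the enzymes were described with 8 lists. Of 155 measured genes 13 were higher and 71 were lower by their brightest probe sets (8.39% and 45.8%), beside 8.37% and 22.9% of all genes and 13.3% and 42.6% of those with a mean of at least 7. Their median brightness was 8.56, like that of the enzymes, and their median difference was -0.19. As with the enzymes, the lower calls were about as frequent as in other bright genes. Over all probe sets the lists were more even. Polycomb had 17 higher and 15 lower of 66, and other demethylases 6 and 5 of 30. Other remodellers and assembly factors had 22 and 18 of 76. Lower calls led among HDAC corepressors (18 and 21 of 73), SWI/SNF partners (6 and 13 of 48) and COMPASS genes (5 and 11 of 26). They also led among other acetyltransferases (10 and 16 of 50) and other methyltransferases (4 and 12 of 47). Over the whole array lower calls led too, with 6133 higher and 7307 lower of 45037 probe sets (13.6% and 16.2%).

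Among the Polycomb genes 2 of 25 were higher and 10 were lower (8% and 40%), beside 13.3% and 42.6% of all genes with a mean of at least 7. Ezh2, the methyltransferase that writes the mark removed by Kdm6a, was at 10.57 and 10.67 in IL-10+ samples and at 11.22 and 11.37 in IL-10- samples (-0.67, adjusted p = 0.000522). The Polycomb subunits Phc3 and Phc1 fell by 0.76 and 0.64. Jarid2, an accessory subunit that recruits the Ezh2 complex, was at 10.83 and 10.85 in IL-10+ samples and at 10.33 and 10.28 in IL-10- samples (0.53, adjusted p = 0.000597). The eraser Kdm6a was thus higher and the writer Ezh2 lower in IL-10+ samples, and Jarid2 was higher although it works with Ezh2.

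In the HDAC corepressor list 2 of 25 genes were higher and 11 were lower (8% and 44%), beside 13.3% and 42.6% of all genes with a mean of at least 7. Rcor1, the CoREST scaffold that joins Kdm1a to Hdac1 and Hdac2, was at 9.80 and 9.83 in IL-10+ samples and at 8.28 and 8.39 in IL-10- samples, the largest rise among the partners (1.48, adjusted p = 1.44e-05), although none of the 3 enzymes it joins was higher by its brightest probe set. Mta3, a NuRD subunit, rose by 0.59, and Arid4b of the Sin3 complex fell by 0.74. Of 17 SWI/SNF partner subunits 0 were higher and 7 were lower (0% and 41.2%). The falls were led by Arid2 (-0.75), Bcl11b (-0.70), also a T-cell transcription factor, and Arid1a (-0.67). Of 12 core genes of the COMPASS complexes, in which the Kmt2 and Setd1 enzymes work, 1 was higher and 7 were lower (8.33% and 58.3%). Among the subunits shared by these complexes, Dpy30 fell by 0.67, Wdr5 by 0.46 and Rbbp5 by 0.37, while Ash2l did not pass (0.02, adjusted p = 0.92). Wdr82 of the Setd1 complexes fell by 0.71, and Men1 of the Kmt2a and Kmt2b complexes by 0.61.

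The other methyltransferases had 1 of 19 genes higher and 10 lower (5.26% and 52.6%), beside 13.3% and 42.6% of all genes with a mean of at least 7. Smyd2 was at 7.68 and 7.68 in IL-10+ samples and at 8.79 and 8.78 in IL-10- samples (-1.11, adjusted p = 2.73e-05), the largest fall among the partners. The arginine methyltransferase Carm1 fell by 0.99 and the H3 lysine 9 methyltransferase Ehmt1 by 0.88, while Dot1l, a methyltransferase of the histone core, rose by 0.67. Of 22 other acetyltransferases 3 were higher and 10 were lower (13.6% and 45.5%), among them Naa40 (0.80), Elp3 (-0.56) and Ncoa1 (-0.55). Of 11 other demethylases 0 were higher and 3 were lower (0% and 27.3%), namely Phf2 (-0.60), Riox1 (-0.57) and Hif1an (-0.44). Of 24 other remodellers and assembly factors 4 were higher and 13 were lower (16.7% and 54.2%). The ISWI partners Baz1a and Baz1b differed in opposite directions: Baz1a was at 11.90 and 11.87 in IL-10+ samples and at 11.09 and 11.06 in IL-10- samples (0.81), and Baz1b was at 9.23 and 9.19 in IL-10+ samples and at 10.03 and 10.22 in IL-10- samples (-0.91). Ercc6, a remodeller of DNA repair, was dim and rose by 0.79.

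**Figure D5:**
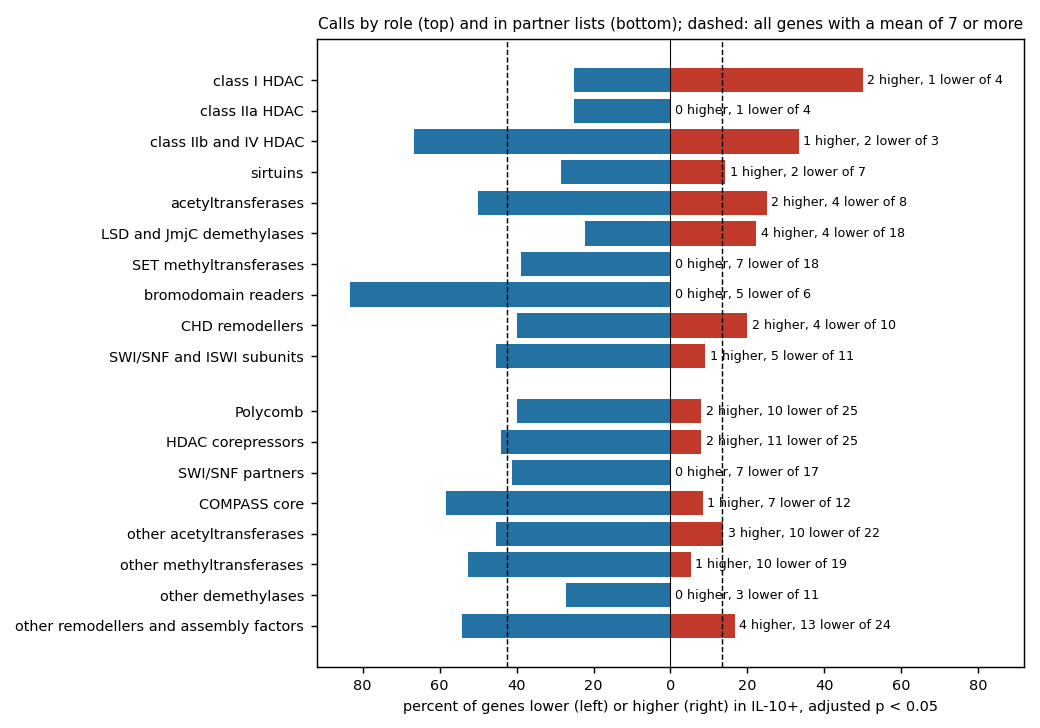
Percent of genes in each role of the enzymes (upper block) and in each partner list (lower block) that were lower (bars to the left) or higher (bars to the right) in IL-10+ samples at an adjusted p under 0.05, by brightest probe set. The dashed lines give the percent over all genes with a mean of at least 7 (42.6% lower, 13.3% higher); bromodomain readers (5 of 6 lower) reach farthest to the left, and small roles rest on few genes.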

How the data were processed

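RNA of 2 IL-10+ and 2 IL-10- samples was extracted with Trizol and hybridized to Affymetrix mouse genome arrays. The methods start labelling from 2 µg of total RNA, the labels from 100 ng. The authors applied variance stabilization, which compresses dim values. The deposited table has 45101 values for each array, taken here to be log2. The highest value, 14.4, is above 11.1, the natural log of the largest 16-bit reading, although the study gives its fold changes as natural logs. Over all probe sets the differences ran from -5.47 to 4.36. Read as log2, none reaches the maximum fold change that the study states. Read as natural log, the largest fall would exceed that maximum. The base is therefore not settled. How probes were summarised is not given in the sources used here.

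After 64 control probe sets were set aside, limma 3.58.1 in R 4.3.3 (lmFit, eBayes, two-sided moderated test, Benjamini-Hochberg) was fitted to all 45037 others, as in the study's methods, with 2 residual and 5.44 prior degrees of freedom. The step was tested on simulated data. Calls were made at an adjusted p under 0.05, and the study's threshold, 2-fold with an adjusted p under 0.001, was taken as a log2 difference of 1. A fold change is 2 to the power of the log2 difference, and single SEs and p-values came from this fit. The platform annotation, parts of which may be out of date, gave 1 gene symbol to 34958 probe sets, several to 932 and none to 9211. Members, partner lists and markers were chosen with earlier results of these data known. Values per array are given for the 10 largest differences in each direction among called genes whose groups do not overlap, for genes with 2-fold probe sets or calls in both directions, and for up to 3 passing genes of each partner list by size; some of these are given as differences only. Promoters came from a RefSeq table (GRCm38.p6). As alternatives, arrays were median centred or quantile normalized, probe sets dimmer than the overall median were dropped before the fit, the prior was robust or given a trend, and each array was left out. Others were the natural log base, the mean over a gene's probe sets, leaving out suffixes x and s, and the brightest probe sets alone. Arrays have no sequencing depth; their number limits the precision. Flow cytometry and culture experiments were not analysed here.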

Additional observations from a re-analysis of the deposited data

Results flagged for a closer look

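Poly-A control transcripts spiked into the RNA, which enter no comparison of the enzymes, read higher at their 5' end in the IL-10+ group by a median of 1.22 on the log2 scale (dap 2.16, thr 1.48, phe 0.96, lys 0.68), against 0.04 for their 3' probe sets. These transcripts do not come from the cells, so their difference is a signal outside the main measurement. Its part in the differences of the enzyme probe sets was not tested.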

How the results depend on the processing

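Of the 48 enzyme genes called by their brightest probe set, 26 kept the call under every alternative run for them, among them Kdm5b, Kdm6a, Kdm4a, Hdac3, Chd3, Kmt2d, Setd6 and Smarca4, and 22 lost it under at least 1. The number of higher genes was 8 without IL-10+ replicate 1 and 8 without IL-10+ replicate 2 and ranged from 8 to 15 as each array was left out, and it was 20 with the mean over a gene's probe sets. Lower probe sets ranged from 36 (without IL-10+ replicate 1) to 70 over the arrays left out. Probe sets at 2-fold ranged from 3 (without IL-10+ replicate 2) to 8 on the higher side, with 12 if values are read as natural log, and from 0 to 1 on the lower side (1 without IL-10- replicate 3), with 1 after median centring and 7 as natural log. Partner genes called higher ranged from 9 to 21 (21 without IL-10- replicate 4) and were 26 with the gene mean, which left 40 lower. With that mean Kdm2a was at 0.037 (adjusted p = 0.671), Chd8 at 0.058 (0.431), Kdm5c at 0.20 (0.0228), Kdm7a at 0.22 (0.0386), Setdb1 at 0.38 (0.00105) and Smarca5 at 0.35 (0.0085), each reversing the sign of the brightest probe set, and Chd1 was at 0.01 (0.932). As each array was left out, the brightest probe set of Kdm7a ranged from -0.25 to 0.21 (adjusted p = 0.0497 at 0.21, without IL-10- replicate 3), and the fourth of Kdm5a from -0.47 to 0.44 (adjusted p = 0.00341 at 0.44, without IL-10- replicate 4). The cause was not tested. With an array left out, the lone sample of its group was assumed to vary like the other group. No paired analysis was possible because the groups share no replicate number. Dim probe sets near background limit how small a difference can be read.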
